A study of Homo sapiens with 12 samples.

Results

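The genes described here encode Jumonji C (JmjC) histone lysine demethylases and their relative JMJD6. They were taken by symbol from the count table, as the rows named KDM2A, KDM3A, KDM4A, KDM4B, KDM4C, KDM5A, KDM5B, KDM6B, JMJD1C and JMJD6. That is 10 of the 51141 gene symbols in the table. After a filter on low counts, 9 of the 10 were among the 14447 genes tested, and KDM4C, which had no read in any library, was not. The 9 encode 8 enzymes or family members named for histone demethylation, and JMJD6.

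RNA was sequenced from EA.hy926 cells, a human endothelial hybrid line, the product of a fusion between umbilical vein cells and A549 lung carcinoma cells. The study asked how TEPA (tetraethylene-pentamine, a copper chelator) changes messenger RNA in these cells at normal and at low oxygen. There were 12 libraries in 4 groups of 3. TEPA+hypoxia cells had 50 µM TEPA for 16 h and then a further 8 h in 1% oxygen. TEPA cells had the same chelator exposure followed by 8 h at normal oxygen. Hypoxia cells had 8 h in 1% oxygen and no TEPA, and control cells had neither. All groups were the same unmodified line grown in DMEM with fetal bovine serum, a vehicle for TEPA and a change of medium are not named in the labels, and these do not say whether replicates were separate cultures. Every p-value therefore measures only the spread between these libraries, which may be technical.

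JmjC demethylases remove methyl groups from histone lysines in a reaction that uses molecular oxygen, ferrous iron and 2-oxoglutarate, so their activity depends on oxygen supply. The lysine and the number of methyl groups removed differ between families: KDM2 acts on H3K36, KDM3 on H3K9, KDM4 on H3K9 and H3K36, KDM5 on H3K4 and KDM6 on H3K27. KDM3A and KDM4B are known as targets of the hypoxia-inducible factor HIF-1, whose binding site holds a short core motif. JMJD6 shares the fold and is known as a lysyl hydroxylase of splicing factors such as U2AF2. RNA levels, not enzyme activity or histone marks, were measured here.

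Total counts ran between 13406858 in hypoxia 3 and 24778944 in TEPA 1. Levels are given as CPM, a count divided by its library's TMM-scaled total in the customary depth-scaled unit. A count of 3, the upper limit that a count of 0 allows, corresponded to between 0.118 and 0.267 CPM (counting error only). The libraries hypoxia 2 and hypoxia 3 differed from all others. They scored 126 and 105 on the first principal component of log2 CPM, which held 76.2% of the variance, against 11.8 for hypoxia 1 and -51.6 to -8.95 for the other 9 libraries. Across genes, the difference of each library's log2 CPM from the control mean was related to transcript length and GC content. In hypoxia 1 to 3 Spearman's rho was -0.445, -0.478 and -0.50 with length and 0.368, 0.509 and 0.533 with GC content. In the other 9 libraries rho ran from -0.396 to 0.440 for length and from -0.427 to 0.473 for GC content. The longest transcripts of the 9 genes measure 4474 to 10763 bases, beside a median of 3425 bases over tested genes, with 39.9% to 62.4% GC, beside a median of 48.4%. Results that rest on hypoxia 2 and 3 are therefore given with and without them, and with a per-library offset for GC content and length.

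The endothelial markers PECAM1 (431 to 675 CPM) and CDH5 (274 to 773 CPM) were present in every library, VWF was low (6.41 to 10.4 CPM), and CLDN5 had no counts. The summed level of 12 endothelial markers was 6801 CPM in hypoxia 2 and 6083 CPM in hypoxia 3, against 3411 to 4063 CPM in the other 10 libraries. The list went both ways, with ENG (3390 and 2775 CPM in hypoxia 2 and 3) and EGFL7 (1715 and 1440 CPM) highest there and CDH5 (274 and 377 CPM), TEK (2.28 and 3.65 CPM), PECAM1, ERG and KDR lowest there. In hypoxia against control 4 of its 11 tested genes were called higher and 5 lower, with a median log2 fold change of -0.18. The epithelial keratins KRT7, KRT8 and KRT18 were high throughout, CDH1 had no counts and EPCAM stayed under 1 CPM. The sum over 6 epithelial markers was 18180 CPM in hypoxia 2 and 15540 CPM in hypoxia 3, against 5440 to 7690 CPM elsewhere. Fibroblast and mural markers summed to 6.92 to 12.7 CPM with COL3A1 and DCN at 0, and leukocyte markers to 145 to 201 CPM, nearly all of it CD68, with PTPRC at 0. The part of these differences in the results was not tested. In bulk RNA, fewer cells of a type and less RNA per cell cannot be told apart.

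Without TEPA, low oxygen went with a higher level of JMJD6 and lower levels of several demethylase genes. In hypoxia against control, JMJD6 was 1.86-fold higher, while KDM2A, KDM4A, KDM5A, KDM5B and JMJD1C were lower, at 0.653, 0.692, 0.579, 0.676 and 0.393 of the control level. KDM3A, KDM4B and KDM6B did not pass the test. A call means a p under 0.05 in the edgeR quasi-likelihood test after Benjamini-Hochberg adjustment over all 14447 genes. The 9 members thus gave 1 higher and 5 lower, where 29.4% of all tested genes were called higher and 27.8% lower. The median log2 fold change over the 9 was -0.53, beside -0.0054 over all tested genes. The share called lower was thus above the general share, and the share called higher was below it.

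Those calls did not hold without hypoxia 2 and 3. With hypoxia 1 as the only hypoxia library, assumed to vary like the other groups, 0 of the 9 were called, where 0.283% of genes were called higher and 0.23% lower, and 5 of the 9 had an unadjusted p under 0.05. With only the hypoxia and control libraries in the edgeR fit 0 of 9 were called, as were 0.0% of all genes, while 5 of the 9 had an unadjusted p under 0.05. With the offset for GC content and length on all libraries, 2 were higher (KDM3A and JMJD6) and 3 lower (KDM2A, KDM4A and JMJD1C), beside 27.7% and 18.5% of genes. With the offset and without hypoxia 2 and 3, KDM3A and JMJD6 were called higher and none lower, beside 0.944% and 0.84% of genes. That last fit was added after the values were seen.

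**Figure D1:**
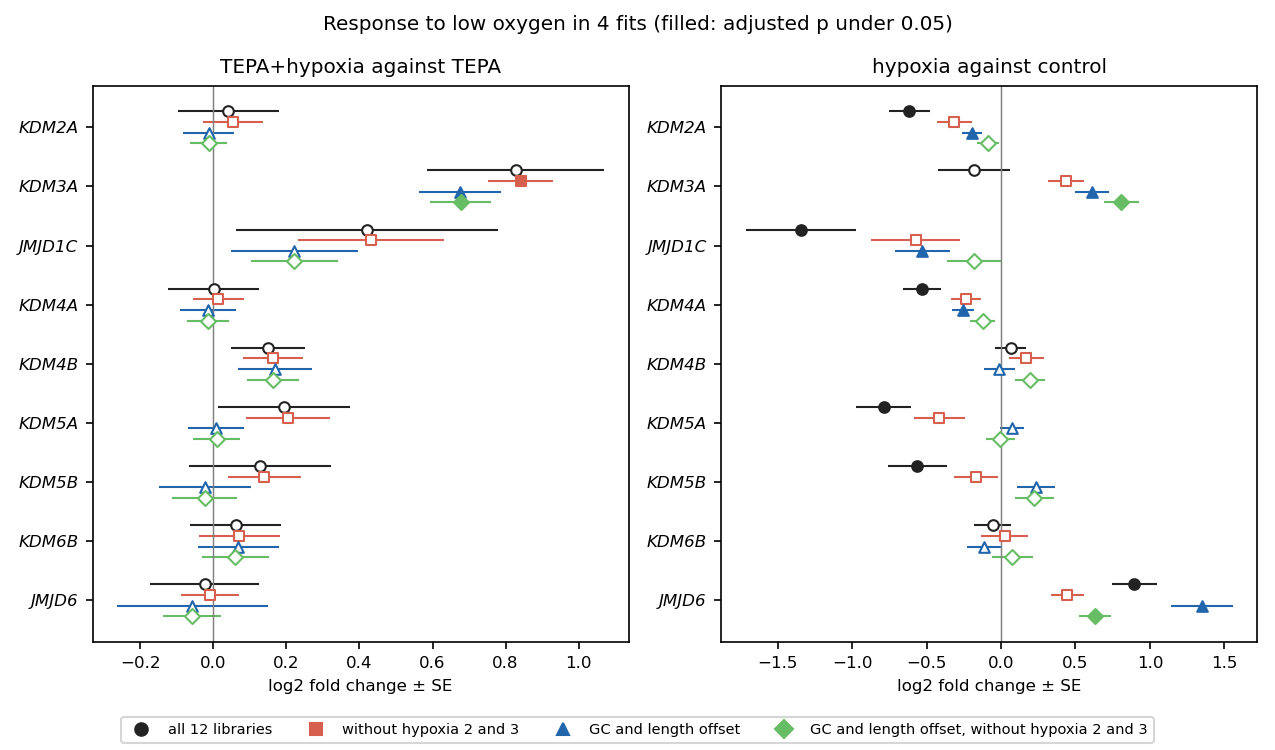
Log2 fold change ± SE of each gene in response to low oxygen, TEPA+hypoxia against TEPA on the left and hypoxia against control on the right, in 4 fits; filled symbols have an adjusted p under 0.05. KDM3A lies above 0.67 in all 4 fits on the left, and on the right it changes sign between the fit of all 12 libraries (-0.18) and the other 3 (0.44 to 0.81), while JMJD6 is above 0 in all 4 on the right.

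In cells that had TEPA, KDM3A was the member with the largest response to low oxygen. TEPA+hypoxia against TEPA gave KDM3A at 1.77-fold, a log2 fold change of 0.83 ± 0.24 (SE), and the other 8 genes between -0.024 and 0.42. With all libraries in the edgeR fit, KDM3A did not pass (adjusted p = 0.336, unadjusted p = 0.00534), so 0 of 9 were called, where 0.0623% of genes were called higher and 0.0346% lower. DESeq2 and limma-voom also gave 0 of 9, each with 1 member at an unadjusted p under 0.05. KDM3A was called in the fit of only the TEPA+hypoxia and TEPA libraries (0.84, adjusted p = 9.63e-04, beside 1.47% of genes called higher) and in the fit without hypoxia 2 and 3 (0.84, adjusted p = 3.9e-04, beside 1.32% higher and 0.842% lower). It was also called with the offset (0.68, adjusted p = 0.042, beside 0.169% higher and 0.0461% lower) and with the offset without those libraries (0.68, adjusted p = 5.17e-04, beside 2.22% higher and 5.08% lower). The hypoxia libraries enter this comparison only through the shared estimate of spread, whose common dispersion was 0.0339 with all libraries and 0.0085 without hypoxia 2 and 3. No other member was called in TEPA+hypoxia against TEPA in any fit.

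At normal oxygen the chelator left no detectable change. In TEPA against control, 0 of 9 members were called, as were 0.0% of all genes, and 0 of the 9 had an unadjusted p under 0.05 by edgeR, DESeq2 or limma-voom. Among all genes 289 had an unadjusted p under 0.05 by edgeR, and DESeq2 called 1 higher and 5 lower. The log2 fold changes ran between -0.14 ± 0.19 (SE) for KDM5B and 0.18 ± 0.13 for KDM6B. For JMJD1C the error was 0.36, so that a change of modest size would not have been detectable.

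Within low oxygen, TEPA went with higher levels of 6 genes and a lower level of JMJD6. Against hypoxia, TEPA+hypoxia had JMJD1C (3.42-fold), KDM5A (2.05-fold), KDM3A (1.95-fold), KDM2A (1.57-fold), KDM5B (1.46-fold) and KDM4A (1.40-fold) called higher, and JMJD6 called lower at 0.546 of the hypoxia level. The background was 30.9% of genes higher and 30.6% lower, and the median over the 9 genes was 0.55, beside 0.032 over all genes. KDM5A (0.67 on the log2 scale), JMJD1C (1.01) and JMJD6 (-0.42) were still called without hypoxia 2 and 3, beside 7.98% of genes higher and 7.17% lower. With the offset, JMJD1C (0.79) was called higher and KDM5B (-0.41) and JMJD6 (-1.37) lower, beside 19.6% and 31.3% of genes. With the offset and without those libraries only JMJD6 (-0.66, adjusted p = 0.0056) was called, beside 3.84% higher and 8.84% lower.

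The test of the difference between the responses is the interaction, the response to low oxygen with TEPA minus the response without it. It shares all its libraries with the comparisons above and is not independent of them. The interaction was called for 6 of the 9 genes, positive for KDM2A, KDM3A, KDM4A, KDM5A and JMJD1C and negative for JMJD6, where 17.3% of genes were called positive and 21.5% negative. With 1 library left out at a time, the call was made in 7 of 12 fits each for KDM5A and JMJD6, in 4 each for KDM2A and JMJD1C and in 1 each for KDM3A and KDM4A, and no member was called without control 1, control 2, hypoxia 3, TEPA 2 or TEPA+hypoxia 3. In each of those 5 fits edgeR called 0 of all genes tested, with 6176 to 6599 at an unadjusted p under 0.05. In the fit without hypoxia 2 and 3 edgeR called 0 of the 9 (adjusted p = 0.0778 to 0.984, with 5 at an unadjusted p under 0.05) and 0.0% of all genes. With the offset JMJD6 alone was called (-1.41, adjusted p = 0.0283), beside 5.6% of genes positive and 17.0% negative. With the offset and without hypoxia 2 and 3 it was again JMJD6 alone (-0.69, adjusted p = 0.0455), beside 0.335% and 1.1% of genes.

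**Figure D2:**
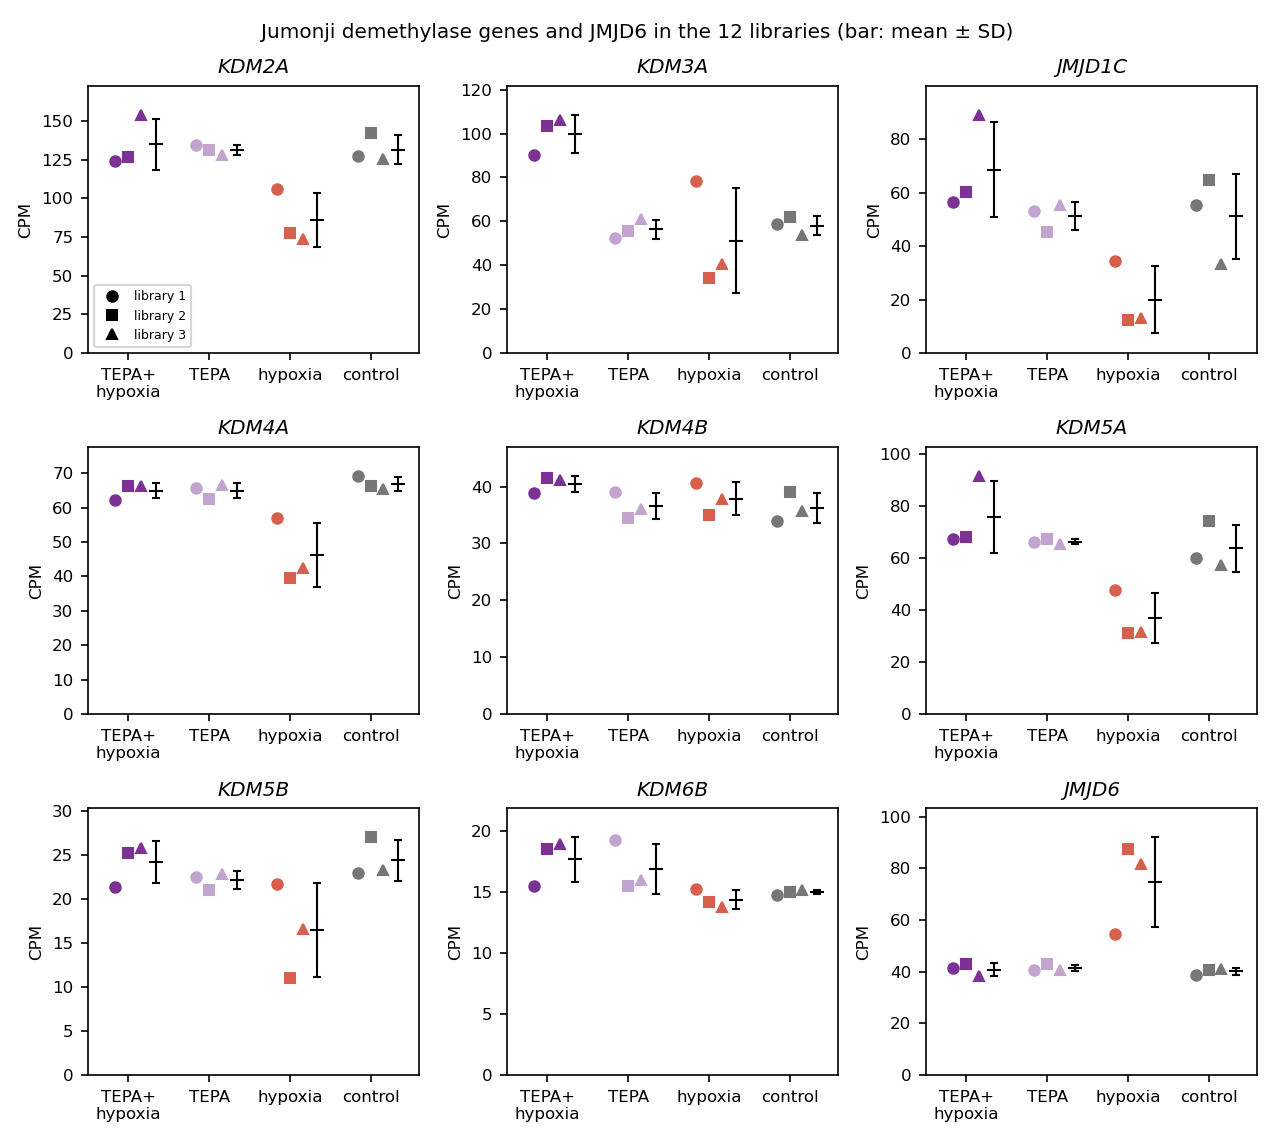
CPM of each of the 9 detected genes in every library, by group from left to right TEPA+hypoxia, TEPA, hypoxia and control; symbols give the library number and the bars mean ± SD over 3 libraries. In most panels hypoxia 2 and 3 lie below the other libraries, in the JMJD6 panel they lie above them at 87.6 and 81.7 CPM, and in the KDM3A panel the 3 TEPA+hypoxia libraries are the highest.

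Levels can be set side by side only per length. Per kb of exon (the union of exons in the GENCODE 29 basic annotation), the order in control was KDM2A (16.8 ± 1.18 CPM per kb, SD, n = 3), KDM4A (15.0 ± 0.467), KDM3A (11.4 ± 0.822), JMJD6 (6.92 ± 0.231), KDM5A (5.92 ± 0.841), JMJD1C (5.63 ± 1.76), KDM4B (4.87 ± 0.344), KDM6B (2.23 ± 0.0259) and KDM5B (1.75 ± 0.166). The first 3 did not overlap with each other or with the rest, while JMJD6, KDM5A and JMJD1C overlapped, as did JMJD1C and KDM4B. The order was the same in TEPA, where KDM2A averaged 16.8 and KDM5B 1.58 CPM per kb. In TEPA+hypoxia KDM3A led at 19.7 ± 1.70 CPM per kb and overlapped with KDM2A at 17.2 ± 2.13. In hypoxia JMJD6 led at 12.9 ± 3.03 CPM per kb, with KDM2A, KDM4A and KDM3A within its range. The place of KDM3A depends on the length used, since its longest transcript (8741 bases) is longer than its exon union (5080 bases). Per kb of longest transcript KDM3A had 11.4 CPM per kb in TEPA+hypoxia, behind KDM2A (19.4) and KDM4A (14.5), whereas JMJD6 kept the first place in hypoxia (13.5).

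KDM3A (ENSG00000115548, chr2:86440647-86492716, plus strand, GENCODE 29 on GRCh38) encodes a demethylase of mono- and dimethylated H3K9. Its level was 90.2, 104 and 106 CPM in TEPA+hypoxia 1 to 3, against 52.5, 55.5 and 61.1 CPM in TEPA 1 to 3. It was 78.6, 34.3 and 40.6 CPM in hypoxia 1 to 3, against 58.7, 62.0 and 53.7 CPM in control 1 to 3. With TEPA the low-oxygen libraries all lay above the normal-oxygen ones, whereas without TEPA hypoxia 1 lay above every control library and hypoxia 2 and 3 below every one. The group mean in hypoxia, 51.2 ± 24.0 CPM (SD, n = 3), therefore describes none of its libraries. The log2 fold change in hypoxia against control was -0.18 ± 0.24 (SE, adjusted p = 0.536) with all libraries and 0.44 ± 0.12 (adjusted p = 0.0941) without hypoxia 2 and 3. With the offset it was 0.61 ± 0.11 (adjusted p = 0.00589), and 0.81 ± 0.11 (adjusted p = 0.00355) with the offset and without those libraries. Leaving out hypoxia 1 instead gave -0.66, a called decrease, so the direction of KDM3A without TEPA rests on which hypoxia libraries are used and on the offset. The difference between the responses was 1.01 ± 0.34 (adjusted p = 0.039) with all libraries, and 0.073 (adjusted p = 0.77) with the offset.

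The promoters of KDM3A and KDM4B are shown because both genes are known HIF-1 targets. That of KDM6B is shown because the core letters were not found in the window read for it. KDM2A, KDM3A and KDM6B have 2 RefSeq windows each and JMJD1C has 3, and only the window nearest the GENCODE gene start was read. Each window ends 50 bases after a RefSeq start on GRCh38.p14 and is written 5′ to 3′ on the gene's strand (chr2:86441121-86441420, chr19:4968863-4969162 and chr17:7839667-7839966, all plus strand). Capitals mark ACGTG and GCGTG, the letters of the core of the hypoxia response element, searched on both strands (CACGT and CACGC on the other).
KDM3A: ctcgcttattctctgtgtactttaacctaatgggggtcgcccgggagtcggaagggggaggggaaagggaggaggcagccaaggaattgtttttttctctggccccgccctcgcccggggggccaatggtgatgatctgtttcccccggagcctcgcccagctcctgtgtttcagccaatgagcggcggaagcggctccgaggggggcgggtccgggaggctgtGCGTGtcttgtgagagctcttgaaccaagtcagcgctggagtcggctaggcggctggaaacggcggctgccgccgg
KDM4B: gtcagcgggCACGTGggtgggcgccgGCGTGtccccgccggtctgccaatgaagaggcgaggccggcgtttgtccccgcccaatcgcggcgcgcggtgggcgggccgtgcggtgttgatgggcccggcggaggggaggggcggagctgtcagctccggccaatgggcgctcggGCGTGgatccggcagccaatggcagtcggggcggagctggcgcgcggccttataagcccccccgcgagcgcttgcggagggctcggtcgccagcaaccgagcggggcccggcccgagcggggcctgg
KDM6B: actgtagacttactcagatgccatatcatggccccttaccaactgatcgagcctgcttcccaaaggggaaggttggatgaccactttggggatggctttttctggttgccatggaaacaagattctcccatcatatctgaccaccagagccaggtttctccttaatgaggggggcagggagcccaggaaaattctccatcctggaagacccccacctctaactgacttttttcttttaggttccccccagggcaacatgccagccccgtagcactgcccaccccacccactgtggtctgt
KDM3A holds GCGTG once, starting 26 bases before the start. KDM4B holds GCGTG at 224 and 77 bases before the start, and CACGTG at 241 bases before it, which reads as ACGTG on both strands. ACGTG occurs in 21.4% of 35116 promoters of this length, GCGTG in 36.5% and either of them in 48.4%. Of the 9 members with a promoter in the RefSeq table (JMJD6 has none there), 8 held either motif in the window read. A match is a run of letters and not a site, and none of these data measured binding.

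JMJD1C (ENSG00000171988, chr10:63167221-63521850, minus strand) encodes a nuclear protein of the KDM3 family. It had 56.4, 60.5 and 89.3 CPM in TEPA+hypoxia, against 53.1, 45.4 and 55.4 CPM in TEPA. It had 34.4, 12.3 and 13.3 CPM in hypoxia, against 55.3, 64.6 and 33.4 CPM in control. Control 3 lay at the level of hypoxia 1, so the groups without TEPA overlapped, and hypoxia 2 and 3 had the lowest values of all 12 libraries. JMJD1C had the largest log2 fold change of the 9 in hypoxia against control, -1.35 ± 0.37 (SE, adjusted p = 0.0115). It was -0.57 (adjusted p = 0.273) without hypoxia 2 and 3, -0.53 (adjusted p = 0.0333) with the offset and -0.18 (adjusted p = 0.593) with both. The interaction was 1.77 ± 0.51 (adjusted p = 0.0265), and 0.75 (adjusted p = 0.0507) with the offset. A noncoding gene on the opposite strand, JMJD1C-AS1, shares 387 exon bases with JMJD1C and had 10 to 20 counts per library. The strand setting of the counting is not given in the sources used here, but at these counts JMJD1C-AS1 is small beside JMJD1C.

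KDM4A (ENSG00000066135, chr1:43650158-43705515, plus strand) encodes a demethylase of trimethylated H3K9 and H3K36. Its level varied little outside hypoxia, with 62.4, 66.3 and 66.3 CPM in TEPA+hypoxia, against 65.7, 62.5 and 66.6 CPM in TEPA. In hypoxia it was 56.9, 39.6 and 42.4 CPM, against 69.3, 66.2 and 65.4 CPM in control. All 3 hypoxia libraries lay below the other 9. KDM4A fell by 0.53 ± 0.13 on the log2 scale in hypoxia against control (adjusted p = 0.00699), with a change of -0.24 (adjusted p = 0.189) without hypoxia 2 and 3 and -0.26 (adjusted p = 0.0191) with the offset. The interaction was 0.53 ± 0.18 (adjusted p = 0.037), against 0.24 (adjusted p = 0.11) with the offset. A second coding gene of the annotation, AL451062.3, shares 2077 exon bases with KDM4A on the same strand and is no row of the count table. KDM4A-AS1, on the other strand with 425 shared exon bases, had 9 to 24 counts per library.

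KDM4B (ENSG00000127663, chr19:4969113-5153595, plus strand), an H3K9 demethylase of the same family, barely varied. It had 38.9, 41.5 and 41.2 CPM in TEPA+hypoxia, against 39.0, 34.5 and 36.1 CPM in TEPA. It had 40.7, 35.0 and 37.9 CPM in hypoxia, against 33.9, 39.0 and 35.8 CPM in control. The groups overlapped in both pairs, and no fit called KDM4B in any comparison. Its log2 fold change was 0.15 ± 0.10 with TEPA and 0.064 ± 0.10 without. KDM4C (chr9:6720863-7175648, plus strand), the third family member, had 0 counts in all 12 libraries. Other genes that most cells use were also at or near 0 in the table (HK1 with 0 counts in total, TXNRD1 with 2 and CANX with 4), so KDM4C is only described as listed at 0.

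KDM5A (ENSG00000073614, chr12:280129-389454, minus strand) encodes a demethylase of di- and trimethylated H3K4, the mark of active promoters. It had 67.4, 67.9 and 91.6 CPM in TEPA+hypoxia, against 66.2, 67.2 and 65.2 CPM in TEPA. It had 47.8, 31.2 and 31.5 CPM in hypoxia, against 60.1, 74.1 and 57.1 CPM in control. Hypoxia was below control without overlap, and the TEPA+hypoxia libraries lay slightly above the TEPA ones, with TEPA+hypoxia 3 highest. KDM5A fell by 0.79 ± 0.18 on the log2 scale in hypoxia against control (adjusted p = 0.00663). Without hypoxia 2 and 3 the change was -0.41 (adjusted p = 0.174), and with the offset it was 0.074 ± 0.079 (adjusted p = 0.456), near 0. KDM5A has the longest transcript of the 9, at 10763 bases. The interaction was 0.98 ± 0.26 (adjusted p = 0.0236), against -0.067 (adjusted p = 0.662) with the offset.

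KDM5B (ENSG00000117139, chr1:202724495-202809470, minus strand), the other H3K4 demethylase among these genes, had 21.4, 25.3 and 25.8 CPM in TEPA+hypoxia, against 22.5, 21.0 and 22.9 CPM in TEPA. It had 21.7, 11.1 and 16.7 CPM in hypoxia, against 22.9, 27.1 and 23.3 CPM in control. Hypoxia 1 lay just under the lowest control library and hypoxia 2 far under it. KDM5B changed by -0.56 ± 0.20 (adjusted p = 0.0304) in hypoxia against control, and it was not called when control 1, control 2, hypoxia 2 or hypoxia 3 was left out. With the offset its change was 0.23 (adjusted p = 0.152) there. Its direction in TEPA+hypoxia against hypoxia turned with the setting, being 0.55 ± 0.20 (adjusted p = 0.0313) with no offset and -0.41 ± 0.13 (adjusted p = 0.0222) with it.

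KDM2A (ENSG00000173120, chr11:67119269-67258087, plus strand) encodes a demethylase of dimethylated H3K36 that binds unmethylated CpG islands. Its mean CPM was the highest of the 9 in every group, though JMJD6 lay above it in hypoxia 2 and 3. KDM2A had 124, 127 and 154 CPM in TEPA+hypoxia, against 134, 131 and 128 CPM in TEPA. It had 106, 77.7 and 73.8 CPM in hypoxia, against 127, 142 and 125 CPM in control. All 3 hypoxia libraries were the lowest of the 12, and the TEPA+hypoxia and TEPA libraries overlapped. KDM2A fell by 0.62 ± 0.14 on the log2 scale in hypoxia against control (adjusted p = 0.00638). Its change was -0.31 (adjusted p = 0.155) without hypoxia 2 and 3, -0.20 (adjusted p = 0.0383) with the offset and -0.087 (adjusted p = 0.527) with both.

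KDM6B (ENSG00000132510, chr17:7839904-7854796, plus strand) encodes a demethylase of trimethylated H3K27, the Polycomb mark, and is known as an inducible gene. Its level was low, with 15.5, 18.5 and 18.9 CPM in TEPA+hypoxia, against 19.2, 15.5 and 16.0 CPM in TEPA. In hypoxia it was 15.2, 14.2 and 13.7 CPM, against 14.8, 15.0 and 15.1 CPM in control. The groups overlapped in both pairs. The log2 fold change was 0.061 ± 0.12 with TEPA and -0.057 ± 0.13 without. In TEPA+hypoxia against hypoxia it was 0.30 ± 0.13 (adjusted p = 0.0606). There every TEPA+hypoxia library lay above every hypoxia library, and KDM6B was called higher in 3 of the 24 alternatives.

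JMJD6 (ENSG00000070495, chr17:76712832-76726799, minus strand) ran opposite to the 5 demethylase genes called in hypoxia. It had 41.3, 42.9 and 38.1 CPM in TEPA+hypoxia, against 40.6, 43.0 and 40.8 CPM in TEPA. It had 54.7, 87.6 and 81.7 CPM in hypoxia, against 38.6, 40.6 and 41.2 CPM in control. All 3 hypoxia libraries lay above the other 9, which kept within 38.1 to 43.0 CPM. JMJD6 rose by 0.90 ± 0.15 on the log2 scale in hypoxia against control (adjusted p = 0.00601). Without hypoxia 2 and 3 it was 0.45 ± 0.11 (adjusted p = 0.0713), with the offset 1.35 ± 0.21 (adjusted p = 0.00589), and with both 0.63 ± 0.11 (adjusted p = 0.0128). The response with TEPA was -0.024 ± 0.15 (adjusted p = 0.98), and the interaction of -0.92 ± 0.21 (adjusted p = 0.0236) was the one that passed with the offset as well. JMJD6 was called higher in hypoxia whichever single library was left out (0.75 to 1.05).

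**Figure D3:**
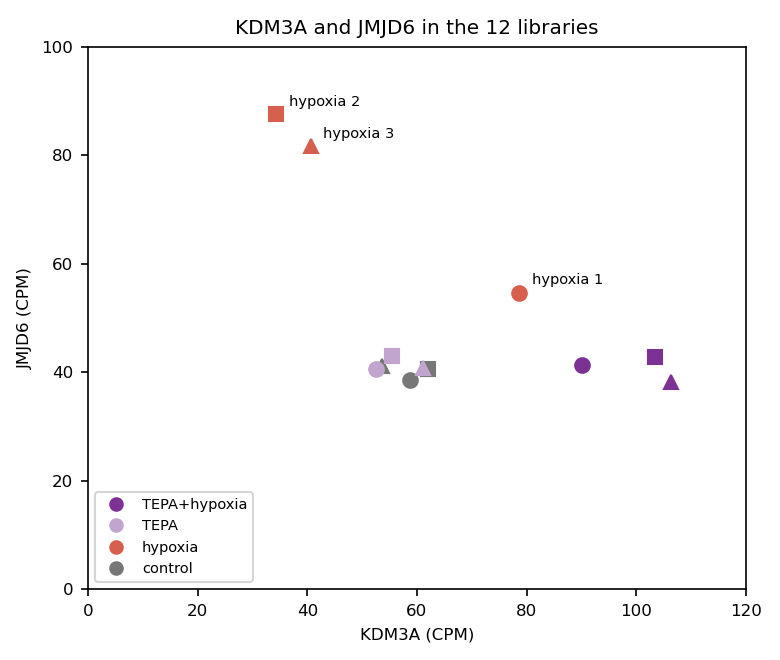
CPM of JMJD6 (vertical axis) against CPM of KDM3A (horizontal axis) in the 12 libraries, coloured by group. The TEPA+hypoxia libraries lie to the right at 90.2 to 106 CPM of KDM3A with JMJD6 near 40.8 CPM, hypoxia 2 and 3 lie to the upper left, and hypoxia 1 lies between with both genes above every control library.

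METTL23 starts next to JMJD6 on the opposite strand without overlapping it and was read as its neighbour. It had 20.5, 18.7 and 15.1 CPM in TEPA+hypoxia, against 19.3, 20.9 and 20.2 CPM in TEPA. It had 25.0, 34.5 and 34.0 CPM in hypoxia, against 19.8, 19.7 and 21.7 CPM in control. As for JMJD6, all 3 hypoxia libraries were above the other 9. In the edgeR fit of all 12 libraries its log2 fold change in hypoxia against control was 0.61 ± 0.15 (adjusted p = 0.00769). The interaction was -0.76 ± 0.21 (adjusted p = 0.0242). Values of METTL23 with the offset or without hypoxia 2 and 3 are not given here, and hypoxia 1 lay below those 2 libraries. A common source of the change was not tested.

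The other JmjC genes served as the comparison within the protein family, a list of 19 of which 17 were tested. In hypoxia against control 4 were called higher (JMJD4, JMJD7, JMJD8 and KDM8) and 4 lower (KDM3B, KDM6A, KDM7A and PHF8), beside 29.4% and 27.8% of all genes, with a median of -0.021, beside -0.0054 over all genes. JMJD8 and KDM8 were named after their values were seen. HIF1AN, taken up below, is also not among the genes of this list named by smallest unadjusted p. The 4 that were higher have longest transcripts of 1416 to 3749 bases and the 4 that were lower 5924 to 9272 bases. HIF1AN, the asparaginyl hydroxylase of HIF and the longest at 13011 bases, had a change of -0.021. With the offset HIF1AN was called higher (0.76, adjusted p = 0.0059). PHF8, which acts on H3K9 and H4K20, fell by 1.00 ± 0.25 (adjusted p = 0.00793), and KDM3B, the closest relative of KDM3A, by 0.98 ± 0.26 (adjusted p = 0.0104). KDM6A, the H3K27 demethylase related to KDM6B, fell by 1.13 ± 0.31 (adjusted p = 0.0115). With hypoxia 2 and 3 left out, edgeR called 0 of the 17 in hypoxia against control, with 3 at an unadjusted p under 0.05.

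With the offset, JMJD7, JMJD8, KDM8 and KDM7A were no longer called (0.35, 0.0042, -0.033 and -0.18). In that setting 6 genes were called higher and 4 lower in hypoxia against control, beside 27.7% and 18.5% of all genes. Of the 6 that were higher, JMJD4 alone was also called without the offset. For TEPA+hypoxia against TEPA 0 of the 17 were called by edgeR, DESeq2 or limma-voom, each with 1 at an unadjusted p under 0.05. That count was also 0 with the offset (0 at an unadjusted p under 0.05) and without hypoxia 2 and 3 (4 at an unadjusted p under 0.05). KDM3A was the single gene called among the 26 tested JmjC genes in that comparison in each of those 2 settings. Of the 17, 3 were higher and 6 lower in TEPA+hypoxia against hypoxia with the offset, beside 19.6% and 31.3% of all genes. Without the offset 5 were higher and 4 lower, beside 30.9% and 30.6%. PHF8 (1.14) and KDM3B (1.05) among them were also called higher without hypoxia 2 and 3 (0.53 and 0.39, adjusted p = 0.0274 and 0.0428). The interaction was called positive for 4 and negative for 2 of the 17, beside 17.3% and 21.5% of all genes (5.6% and 17.0% with the offset). With the offset it was called positive for 0 and negative for 6, and without hypoxia 2 and 3 edgeR called 0 of the 17, with 3 at an unadjusted p under 0.05.

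**Figure D4:**
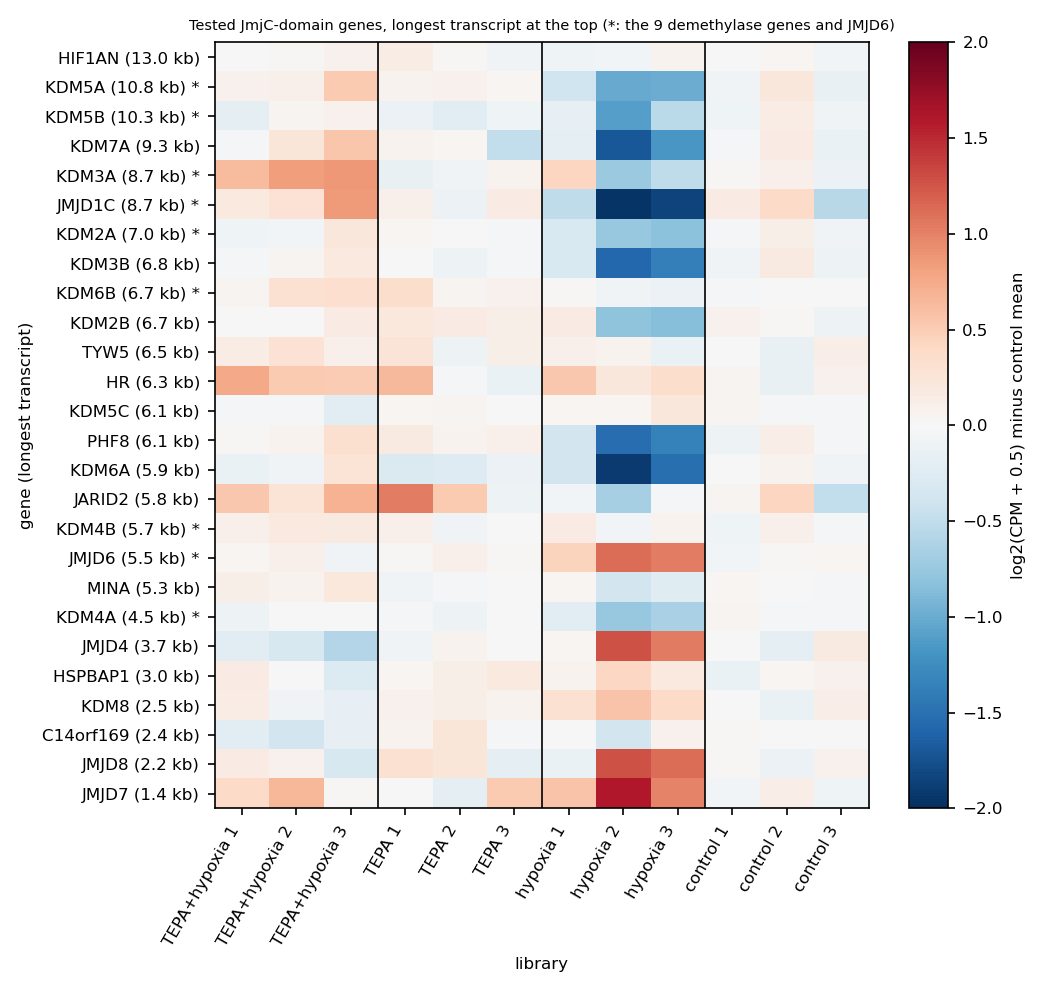
Log2(CPM + 0.5) of the 26 tested JmjC genes in each library minus the control mean, genes ordered by longest transcript from the top (13.0 kb for HIF1AN to 1.4 kb for JMJD7), with an asterisk on the 9 genes described here. Blue in hypoxia 2 and 3 is found mostly in the upper rows and red in the lower rows, JMJD6 is red there at 5.5 kb, and KDM3A is red in all 3 TEPA+hypoxia libraries.

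Histone demethylases of the other class use FAD in place of iron and 2-oxoglutarate, and 2 of 2 were called lower in hypoxia against control. Of all genes 27.8% were called lower there, and 18.5% with the offset. KDM1A and KDM1B, which act on H3K4, changed by -1.57 ± 0.49 (adjusted p = 0.0186) and -0.85 ± 0.32 (adjusted p = 0.0397) in hypoxia against control. KDM1A kept its call with the offset (-1.55, adjusted p = 0.0172) and KDM1B did not (-0.38, adjusted p = 0.164). In the fit lacking hypoxia 2 and 3, edgeR called 0 of these 2 and 1 had an unadjusted p under 0.05. Of the TET dioxygenases, which oxidise methylcytosine with the same cofactors as the JmjC enzymes, TET2 and TET3 were tested and were lower by 1.11 and 1.10 on the log2 scale (adjusted p = 0.00646 and 0.00619). With the offset TET3 kept its call (-0.64, adjusted p = 0.00966) and TET2 did not (-0.28, adjusted p = 0.0945). In the fit lacking those libraries edgeR called 0 of the 2, and both had an unadjusted p under 0.05.

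Histone methyltransferases are the enzymes that write these marks. Of 22 listed, 21 were tested. In hypoxia against control 3 were called higher and 11 lower, beside 29.4% and 27.8% of all genes (27.7% and 18.5% with the offset). The median log2 fold change was -0.86, beside -0.0054 over all genes. The H3K4 methyltransferase genes KMT2A, KMT2C, KMT2D and SETD1B changed by -0.99, -1.21, -0.89 and -0.90, and the H3K36 methyltransferase genes NSD1 and NSD3 (in the table as WHSC1L1) by -1.84 and -0.86. With the offset KMT2C, KMT2D, SETD1B and NSD1 kept their calls (-0.43, -0.75, -0.86 and -1.16), while KMT2A (-0.26, adjusted p = 0.0649) and NSD3 (0.014, adjusted p = 0.87) lost theirs. With the offset the counts were 5 higher and 8 lower and the median -0.22, and without hypoxia 2 and 3 edgeR called 0, with 11 at an unadjusted p under 0.05. Between TEPA+hypoxia and hypoxia 13 were higher and 4 lower, beside 30.9% and 30.6% of all genes. With the offset these counts were 10 higher and 7 lower, beside 19.6% and 31.3%. Without hypoxia 2 and 3 they were 10 higher and 0 lower, beside 7.98% and 7.17%, and NSD1 was among those higher (1.61, adjusted p = 0.0178). A difference between methyltransferase and demethylase genes was not tested.

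Of 6 reported partners of JMJD6, 1 was called higher and 2 lower in hypoxia against control, beside 29.4% and 27.8% of all genes. Among them, CDK9, the kinase that releases paused RNA polymerase II, was higher in hypoxia against control (0.38 ± 0.12, adjusted p = 0.0182), while its cyclin CCNT1 was lower (-0.69 ± 0.20, adjusted p = 0.0127). U2AF1, U2AF2 and HEXIM1 were not called without the offset. With it, edgeR called U2AF2 lower (-0.56, adjusted p = 0.00716) and HEXIM1 higher (0.32, adjusted p = 0.0117). In that setting 18.5% of all genes were called lower and 27.7% higher. CDK9 and CCNT1 lost their calls without hypoxia 2 and 3, where both also had an unadjusted p over 0.05, and with the offset (-0.0012 and 0.15).

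Genes of 2-oxoglutarate metabolism, which supplies the cosubstrate of JmjC enzymes, gave 4 higher (IDH2, IDH3B, IDH3G and D2HGDH) and 2 lower, GLUD1 among them, of 12 in hypoxia against control, beside 29.4% and 27.8% of all genes, with a median of -0.13. The isocitrate dehydrogenase genes IDH2, IDH3B and IDH3G changed by 0.52, 0.70 and 0.79 on the log2 scale. With the offset these 3 were not called (0.17, 0.045 and -0.13). D2HGDH (0.67, adjusted p = 0.00966) and GLUD1 (-0.24, adjusted p = 0.0263) kept their calls there. In that setting 2 of the 12 were higher and 3 lower, beside 27.7% and 18.5% of all genes. Without hypoxia 2 and 3 edgeR called 0 of the 12, with 0 at an unadjusted p under 0.05. For TEPA+hypoxia against TEPA edgeR and limma-voom called 0, with 0 at an unadjusted p under 0.05, and DESeq2 called 0, with 1.

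The genes whose log2 CPM tracked a member most closely were looked up among 10120 genes of at least 5 CPM on average. Over all 12 libraries BIN1, GPI and FSTL3 were nearest to JMJD6 (Pearson r 0.994, 0.994 and 0.993), and the same 3 were nearest over the 10 libraries other than hypoxia 2 and 3 (0.954 for BIN1, 0.947 for FSTL3 and 0.944 for GPI). For KDM3A they were HSP90AA1, ZFP62 and MIR3064 over 12 libraries (0.972, 0.967 and 0.959), and CLK1, TMCC1-AS1 and HNRNPU-AS1 over 10 (0.986, 0.977 and 0.975). For KDM4B they were P4HA1, MAMLD1 and FGFR1OP over 12 (0.859, 0.856 and 0.848) and MAMLD1, EGLN1 and VASH1 over 10 (0.896, 0.891 and 0.883). The libraries share groups and, within hypoxia, differ in the way described above, so these values are descriptions only. Between members, r of JMJD6 with KDM4A was -0.990 over 12 libraries and -0.895 over 10, while r of KDM3A with KDM4A was 0.644 and -0.171.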

How the data were processed

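Gene counts for 12 poly(A) libraries were deposited as 1 table. They are raw whole-number counts per gene symbol, and the authors made them from reads aligned with HISAT2 2.1.0 to GRCh38, with DESeq also named, per the submitters' processing notes. Per the labels' protocols, a directional kit was used. No source used here gives the counter, annotation or strand setting.

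Counts were analysed in R 4.3.3. The edgeR 4.0.16 filter on low counts by group kept 14447 genes with 99.9% of counts. Libraries were scaled by TMM and fitted together with 1 mean per group, and each contrast was tested two-sided with the edgeR quasi-likelihood F-test (Benjamini-Hochberg over all genes tested, called under 0.05). SE was taken from the fold change and F. The offset used natural splines with 4 degrees of freedom per library on GC content and longest transcript length (GENCODE 29), for 13007 genes, 90.0% of those tested. Other alternatives were RLE and upper quartile scaling, other filters, DESeq2 1.42.0, limma 3.58.1 voom, a replicate block, only the groups compared, each library left out in turn and hypoxia 2 and 3 left out. The fits were tested on simulated counts with a dispersion of 0.0085, that of the fit without hypoxia 2 and 3. These counts had no length or GC trend and no deviating libraries, so they do not cover those features of the data. No pair of replicates agreed within sampling noise (chi-square per gene of at least 1.71).

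The members and lists were chosen with earlier results of these data known. All members are named. Of each other list, up to 6 genes with the smallest unadjusted p are named, as are the 3 genes most correlated with a member. Of the other JmjC genes, JMJD8, KDM8 and HIF1AN are named besides these. Promoters are from RefSeq, GRCh38.p14. Some genes of these lists are not reported here.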

Additional observations from a re-analysis of the deposited data

Results flagged for a closer look

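For 6 of the 9 tested genes, the response to low oxygen with TEPA differed from the response without it by the interaction test on all 12 libraries (edgeR, adjusted over 14447 genes). In the same test 17.3% of all tested genes were called positive and 21.5% negative. The difference in log2 fold change, with TEPA minus without, was 1.77 for JMJD1C, 1.01 for KDM3A, 0.98 for KDM5A, 0.66 for KDM2A, 0.53 for KDM4A and -0.92 for JMJD6 (adjusted p = 0.0265, 0.039, 0.0236, 0.028, 0.037 and 0.0236). In hypoxia 2 and 3, JMJD1C, KDM5A, KDM2A, KDM4A and KDM3A had the 2 lowest values of the 12 libraries and JMJD6 the 2 highest. The calls are not independent of each other, since all rest on the same 3 hypoxia libraries. Without hypoxia 2 and 3 the differences were 1.01, 0.41, 0.62, 0.37, 0.25 and -0.46, each of the same sign, and none was called. With the offset for GC content and length, JMJD6 alone was called (-1.41), and the difference of KDM5A changed sign (-0.067). With the offset and without hypoxia 2 and 3, that of KDM3A changed sign (-0.13). The part of length, GC content and the 2 libraries in these differences was not tested beyond these fits.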

How the results depend on the processing

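Directions and calls of the members were recomputed under 24 alternatives per pair of groups and 23 for the interaction. RLE and upper quartile scaling, both other filters, DESeq2 and limma-voom left every count of called members within 1.5 times. Beyond single libraries, the counts moved in these fits. In hypoxia against control the counts were 0 higher and 0 lower with only the groups compared and without hypoxia 2 and 3, 2 and 3 with the GC content and length offset, and 2 and 0 with the offset without hypoxia 2 and 3. KDM3A was higher in TEPA+hypoxia against TEPA (1 called) with only the groups compared, without hypoxia 2 and 3, and with the offset with or without them. In TEPA+hypoxia against hypoxia, 2 were higher without hypoxia 2 and 3, 1 higher and 2 lower with the offset, and 0 higher with both. For the interaction 0 were positive and 0 negative without hypoxia 2 and 3, and 0 positive with the offset with or without them.

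With 1 library left out at a time, TEPA+hypoxia against TEPA gave 0 to 1 higher (1 without hypoxia 1), and the interaction gave 0 to 6 positive and 0 to 1 negative. For the interaction no member was called without control 1, control 2, hypoxia 3, TEPA 2 or TEPA+hypoxia 3, and in each of these fits edgeR called 0 of all genes (6176 to 6599 at an unadjusted p under 0.05). Log2 fold changes that changed sign ran from -0.66 to 0.033 for KDM3A and -0.020 to 0.11 for KDM4B in hypoxia against control. In TEPA+hypoxia against TEPA they ran from -0.066 to 0.099 for KDM2A, -0.028 to 0.029 for KDM4A and -0.062 to 0.021 for JMJD6. In TEPA against control they ran from -0.039 to 0.055 for KDM2A, -0.11 to 0.0034 for KDM3A, -0.040 to 0.067 for KDM4B, -0.020 to 0.17 for KDM5A and -0.23 to 0.21 for JMJD1C.

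Signs also changed in hypoxia against control for KDM3A (0.44 without hypoxia 2 and 3, 0.61 with the offset, 0.81 with both, that is with the offset and without those libraries), KDM4B (-0.011 with the offset), KDM5A (0.074 with the offset), KDM5B (0.23 with the offset, 0.22 with both) and KDM6B (0.023 without hypoxia 2 and 3, 0.077 with both). In TEPA+hypoxia against TEPA the offset gave -0.013 for KDM2A, -0.015 for KDM4A and -0.024 for KDM5B, and with both it gave -0.013, -0.016 and -0.024. KDM4A was -0.0087 with RLE scaling, -0.0087 by DESeq2 and -0.0056 with no filter, and JMJD6 0.0071 with upper quartile scaling. In TEPA against control KDM4B was -0.049 with the offset and -0.045 with both, and JMJD1C -0.0025 with no filter, -0.00047 with only the groups compared and -0.00078 without hypoxia 2 and 3. In TEPA+hypoxia against hypoxia, with both, KDM3A was -0.17, KDM4B -0.075 and KDM5B -0.39, and with the offset KDM5A was -0.0046 and KDM5B -0.41. For the interaction KDM4B was -0.0063 without hypoxia 2 and 3, KDM5A -0.067 and KDM5B -0.26 with the offset, and with both KDM3A was -0.13, KDM4B -0.030, KDM5B -0.25 and KDM6B -0.016. The cause of these changes was not tested. Of the fold changes under alternatives in hypoxia against control, 179 kept direction and call, 21 lost the call, 15 changed sign and 1 gained a call. These numbers were 191, 0, 20 and 5 in TEPA+hypoxia against TEPA, 199, 0, 17 and 0 in TEPA against control, 186, 20, 7 and 3 in TEPA+hypoxia against hypoxia and 127, 68, 9 and 3 for the interaction. Each of the 36 group levels in CPM moved by less than 1 SD under RLE and upper quartile scaling.

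Over all genes, hypoxia against control gave 4254 higher and 4016 lower, and 43 and 35 without hypoxia 2 and 3, 0 and 0 with only the groups compared (6939 at an unadjusted p under 0.05) and 3599 and 2406 with the offset. TEPA+hypoxia against TEPA gave 9 and 5, and 205 and 150 with only the groups compared, 201 and 128 without hypoxia 2 and 3, and 92 and 53 by DESeq2. The interaction gave 2498 and 3113, 0 and 0 without hypoxia 2 and 3 (4117 at an unadjusted p under 0.05) and 728 and 2217 with the offset.

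The groups share replicate numbers, but same-numbered libraries did not deviate together (correlations from -0.36 to 0.32), so the numbers were not read as pairs. With the replicate number as a block the counts of called members stayed within 1.5 times of those above in every comparison, and the interaction of KDM3A lost its call (adjusted p = 0.0503). The offset with the replicate block gave 2 higher and 2 lower in hypoxia against control, 1 higher and 2 lower in TEPA+hypoxia against hypoxia, 0 in TEPA+hypoxia against TEPA and 0 positive for the interaction. Signs under the offset with the block were those of the offset alone: KDM3A 0.61, KDM4B -0.014, KDM5A 0.075 and KDM5B 0.24 in hypoxia against control. In TEPA+hypoxia against TEPA they were -0.012 for KDM2A, -0.014 for KDM4A and -0.022 for KDM5B, and in TEPA against control -0.051 for KDM4B. In TEPA+hypoxia against hypoxia they were -0.0043 for KDM5A and -0.40 for KDM5B, and for the interaction -0.067 and -0.26.

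KDM6B and KDM5B had under 30 CPM in every library, and KDM6B had an SE of 0.13 in TEPA against control. The groups have 3 libraries each, JMJD1C had an SE of 0.36 in TEPA against control, and hypoxia holds 1 library when hypoxia 2 and 3 are left out.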
